A study of Homo sapiens with 14 samples.

Results

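H3K9me3 and H3K27me3, a pair of histone marks of repressed chromatin, were compared over 19970 protein-coding genes of TC-32, an established Ewing sarcoma cell line that carries the EWSR1::FLI1 fusion. The comparison uses 4 of the 14 libraries of the series: H3K9me3 replicates 1 and 2 and H3K27me3 replicates 1 and 2, all of set B. CUT&RUN, in which an antibody directs a nuclease to cut and release the DNA next to its target, was run on untreated cells labelled WT in all groups, and set B also holds 2 IgG control libraries on which both marks were called. FLI1 (4 libraries, sets A and B) and H3K27ac, a mark of active chromatin (2 libraries, set A), are used below only as readouts at gene starts. The labels do not say what separates sets A and B, or whether replicates came from separate cultures, so the spread between them may be technical.

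Each gene was classed by a fixed rule. The start window ran 1 kb either side of the annotated gene start, and the body ran from the annotated start to the end. A gene carried a mark in a window where at least 10% of it lay in bases found in the lists of both replicates. At the start, 219 genes carried H3K9me3 only, 1777 carried H3K27me3 only, 4 carried both and 17970 neither. Over the body, the numbers were 623, 1072, 5 and 18270. Each mark was therefore found at the start of 1.12% (H3K9me3, 223 genes) and 8.92% (H3K27me3, 1781 genes) of all genes, and over the body of 3.14% (628 genes) and 5.39% (1077 genes). These shares are the background for every count of a gene family below.

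H3K27me3 is placed by EZH1 and EZH2, the catalytic subunits of Polycomb repressive complex 2, and typically lies over the CG-rich starts of developmental regulators that a cell type does not use. H3K9me3 is placed by SETDB1, SUV39H1 and SUV39H2, is bound by HP1 proteins and typically covers repeats and gene clusters. KRAB zinc-finger proteins bind DNA through tandem C2H2 fingers and recruit TRIM28 and SETDB1, and the clusters of genes that encode them are themselves known to carry H3K9me3.

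The H3K9me3 lists held 36687 and 21770 regions (59.7 and 38.8 Mb) in replicates 1 and 2, and the H3K27me3 lists 21461 and 16667 (48.96 and 31.4 Mb). The lists give no read totals, so depth is unknown, and a gene without a region was not detected rather than shown to lack the mark. The bases in both replicates came to 32.1 Mb for H3K9me3 and 27.4 Mb for H3K27me3. They met in 22 stretches of 15.2 kb in all. As a check of the label, 10 of 16 Ewing sarcoma marker genes had a FLI1 region at the start in all 4 FLI1 libraries, among them NR0B1, NKX2-2 and CCND1, against 0 of 10 markers of other cell types (33.8% of all genes). No start of the 16 carried either mark, though CD99 and STEAP2 had no FLI1 region in any library and the body of GLI1 lay 36.3% in H3K27me3. Of the other 10, MYOD1 was among those with H3K27me3 at the start.

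The first comparison asked at which part of the gene each mark lay. H3K27me3 was found at more gene starts than H3K9me3: 11.1% and 9.43% carried it in replicates 1 and 2, against 2.30% and 1.32% for H3K9me3. Both H3K27me3 libraries lay above both H3K9me3 libraries, with a mean of 10.3% ± 1.19 against 1.81% ± 0.694 (SD, n = 2 libraries each) and a difference of 8.46 percentage points. Over bodies the marks were closer, at 7.68% and 5.87% against 4.84% and 3.56%, a difference of 2.58 points. The windows also went together differently: of the genes with H3K27me3 over the body, 75.4% and 75.8% also carried it at the start, whereas for H3K9me3 this held for 26.7% and 19.2%, a difference of 52.7 points. Start window and body have the first 1 kb of the gene in common, which weighs more in short genes. Median lengths were 12.3 kb in the H3K27me3-only body class and 33.3 kb in the H3K9me3-only body class. The part of gene length in this difference was not tested. The converse shares were closer and ran the other way: with bases in both replicates, 52.9% of the 223 H3K9me3 start genes carried the mark over the body, and 45.8% of the 1781 H3K27me3 start genes did. For each of the 3 differences a two-sided exact permutation test over the libraries gave p = 0.333 (n = 2 against 2), the smallest this design can give, and 0.333 after Benjamini-Hochberg adjustment over the 3.

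**Figure D1:**
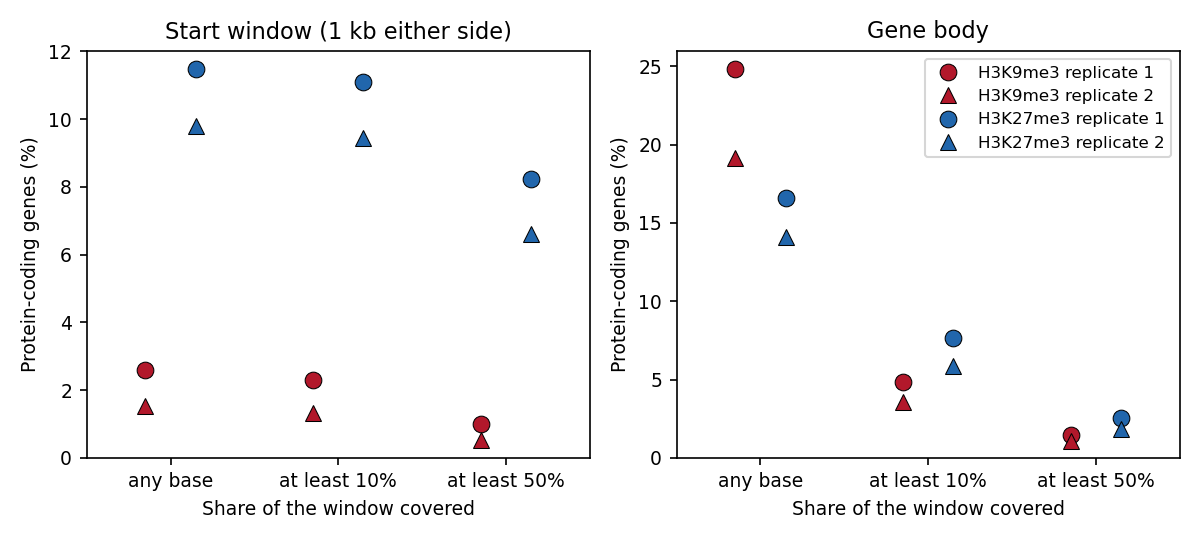
Percent of 19970 protein-coding genes (y axis) whose start window (left) or body (right) lies in the regions of each library, counting any base, at least 10% or at least 50% of the window (x axis); each point is 1 library. At starts both H3K27me3 libraries lie above both H3K9me3 libraries at each setting, while over bodies the order turns for any base, where H3K9me3 touches 24.8% and 19.1% of genes and H3K27me3 16.6% and 14.1%.

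The order over bodies rested on how much of the body was asked for. Counting any base, H3K9me3 touched more bodies than H3K27me3 (3599 genes or 18% against 2662 genes or 13.3%, bases in both replicates), and the library difference turned to -6.62 points. The genes touched by H3K9me3 were long, with a median length of 107 kb, against 48.9 kb for H3K27me3 and 27.5 kb for all genes. In 82.6% of them the mark covered under 10% of the body, against 59.5% for H3K27me3. At starts the order did not turn for any base (273 genes or 1.37% against 1870 genes or 9.36%). Coverage there differed as well: the median marked start lay 41.6% in H3K9me3 or 77.7% in H3K27me3, and 32 and 666 starts were covered over the whole window. These coverages follow in part from the rule and are given as a description.

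H3K9me3 calls at starts depended more on the library than those of H3K27me3. Of the 459 starts called in H3K9me3 replicate 1, 51.0% were also called in replicate 2, and of the 263 in replicate 2, 89.0% in replicate 1. For H3K27me3 the shares were 82.3% of 2218 and 96.9% of 1883. Leaving out H3K9me3 replicate 2 raised the H3K9me3-only class from 219 to 452 genes at the start and from 623 to 956 over the body. At the 10% threshold itself, KRTAP10-5 and SCGB1C1 lay just inside for H3K9me3, both at 10% of the start, and RAPGEF1 and USP6 just outside, at 9.9% and 9.8%. ENSG00000288712 and OR1P1 lay just inside for H3K27me3 at 10%, with RASGRP2 and C16orf92 just outside at 9.9% and 9.85%.

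Start and body lay wholly in H3K9me3 in both replicates in 7 genes, and in H3K27me3 in 70. The 5 longest of each are named here. For H3K9me3 they were ZNF454 (chr5:178941191-178966433), ZNF671 (chr19:57719751-57727624), ZNF501 (chr3:44729596-44737083), ZNF572 and ANHX (chr12:133218312-133235877). The first 4 encode C2H2 zinc-finger proteins, and ANHX is a homeobox gene that the symbol rules used below do not cover. All 5 had 100% of the start and 100% of the body in H3K9me3 in replicate 1 and in replicate 2, and 0% in H3K27me3 in either replicate. ZNF454 lay inside 1 region of 70.0 kb in replicate 1 and 75.9 kb in replicate 2, the longest region of each list. ZNF671 had a FLI1 region at the start in both set B libraries and in neither of set A, and the other 4 had none in any of the 4.

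For H3K27me3 the 5 longest of the 70 were DBH (chr9:133636363-133659329), which encodes the enzyme that makes noradrenaline from dopamine, GATA5 (chr20:62463497-62475995), a regulator of heart and endoderm, GABRD (chr1:2019329-2030758), a GABA-A receptor subunit, NPTX1 (chr17:80466834-80477843), a neuronal pentraxin, and C14orf180 (chr14:104579764-104590515). Start and body of each were covered 100% in both H3K27me3 replicates and 0% in both H3K9me3 replicates. No FLI1 or H3K27ac region lay at any of these 5 starts.

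Promoter sequence, which the rule did not use, differed between the classes. The windows below run from 250 bases before to 50 after the gene start on hg38, 5′ to 3′ on the gene's strand, with each CG dinucleotide in capitals. They were chosen to show a zinc-finger gene covered from end to end by H3K9me3 (ZNF454, chr5:178940941-178941240, plus strand, 26 CG), a clustered protocadherin with H3K9me3 at the start (PCDHB3, chr5:141100223-141100522, plus strand, 12 CG), a zinc-finger gene with H3K9me3 over the body and not at the start (ZNF678, chr1:227563293-227563592, plus strand, 8 CG) and a start with both marks (PRRT1B, chr9:131545273-131545572, plus strand, 29 CG).
ZNF454: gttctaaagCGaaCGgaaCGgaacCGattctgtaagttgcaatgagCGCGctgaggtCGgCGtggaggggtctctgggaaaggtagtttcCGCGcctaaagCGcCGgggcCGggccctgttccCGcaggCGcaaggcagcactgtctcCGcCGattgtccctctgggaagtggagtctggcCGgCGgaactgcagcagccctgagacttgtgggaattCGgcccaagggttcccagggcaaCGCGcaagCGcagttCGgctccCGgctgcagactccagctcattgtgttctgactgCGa
PCDHB3: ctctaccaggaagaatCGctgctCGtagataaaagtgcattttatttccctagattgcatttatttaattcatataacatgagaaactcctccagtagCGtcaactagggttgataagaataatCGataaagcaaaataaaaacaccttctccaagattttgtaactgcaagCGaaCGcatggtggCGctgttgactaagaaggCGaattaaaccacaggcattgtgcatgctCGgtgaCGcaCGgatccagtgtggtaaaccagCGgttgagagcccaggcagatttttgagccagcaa
ZNF678: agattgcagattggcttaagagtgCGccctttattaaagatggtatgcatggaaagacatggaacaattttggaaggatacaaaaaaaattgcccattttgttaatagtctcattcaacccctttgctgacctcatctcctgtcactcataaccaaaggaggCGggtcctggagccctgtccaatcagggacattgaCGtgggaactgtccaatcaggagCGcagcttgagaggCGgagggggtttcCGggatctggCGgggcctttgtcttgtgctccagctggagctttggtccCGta
PRRT1B: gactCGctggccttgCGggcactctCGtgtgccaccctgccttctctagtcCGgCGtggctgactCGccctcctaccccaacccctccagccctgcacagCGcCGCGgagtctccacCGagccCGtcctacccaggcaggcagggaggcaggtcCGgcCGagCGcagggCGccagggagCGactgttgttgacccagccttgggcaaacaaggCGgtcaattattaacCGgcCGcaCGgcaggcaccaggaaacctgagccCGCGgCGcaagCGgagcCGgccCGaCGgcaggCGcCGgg

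Starts with H3K27me3 only had more CG in this window, with a median of 23 (quartiles 11 and 34), than starts with H3K9me3 only, with 13 (6 and 22.5). The median over all genes was 18 (6 and 29), and 97.8% of all promoter windows hold at least 1 CG. G and C made up a median of 66.7% of the window in the first class, 55% in the second and 60.3% in all genes. Windows with at least 15 CG made up 67.8% of the H3K27me3-only class, 45.7% of the H3K9me3-only class and 57.1% of all genes. The clustered protocadherins with H3K9me3 at the start had the lowest median of the groups compared, 7 CG in 22 windows. Setting these and the zinc-finger genes aside left 140 H3K9me3-only starts with a median of 12.5. The windows printed above are not typical of their groups, and none is of the H3K27me3-only class. ZNF454, with 26 CG, lay above the upper quartile of H3K9me3-only starts. ZNF678, with 8 CG, lay below the lower quartile (14) of zinc-finger genes with H3K9me3 over the body and not at the start. Genes are not replicates, and neighbouring family members share sequence, so these values are given with no test.

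H3K9me3 over gene bodies lay to a large extent in zinc-finger genes. Of 559 genes named as zinc-finger genes by symbol (ZNF, ZFP, ZSCAN, ZKSCAN, ZIM and ZIK), 305 (54.6%) carried H3K9me3 over the body, against 3.14% of all genes and 1.66% of the 19411 other genes. They made up 48.6% of the 628 genes with the mark over the body and 25.6% of the 223 with it at the start. At the start the share was lower, 57 of 559 (10.2%, against 1.12%), and it was 115 in replicate 1 alone and 65 in replicate 2. H3K27me3 was found at 9 zinc-finger starts (1.61%, against 8.92%): ZNF648, ZNF385B, ZNF804B, ZNF467, ZNF488, ZNF215, ZNF469, ZNF536 and ZFP92. None of these 9 carried H3K9me3 at the start or over the body.

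Chromosome 19 carried many of these genes. Of its 261 zinc-finger genes 192 (73.6%) carried H3K9me3 over the body, and 113 of 298 (37.9%) did on the other chromosomes. The other 1215 protein-coding genes of chromosome 19 had it in 28 cases (2.30%). The longest run of neighbouring genes with H3K9me3 over the body held 32 genes from ZNF565 to ZNF573 (chr19:36182276-37817300), 29 of them zinc-finger genes by symbol. For H3K27me3 the longest run held 13 genes from SYT8 to C11orf21 (chr11:1828307-2303049), among them INS, which encodes insulin, IGF2, TH and ASCL2. Runs of 5 or more genes held 39.0% of the H3K9me3 body genes and 10.2% of the H3K27me3 body genes, while 40.4% and 53.6% stood alone. Overlapping gene models count here as separate neighbours. Of the H3K9me3-only body genes 43.5% overlapped another gene, against 20.6% of the H3K27me3-only body genes, and the part of this in the runs was not tested.

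**Figure D2:**
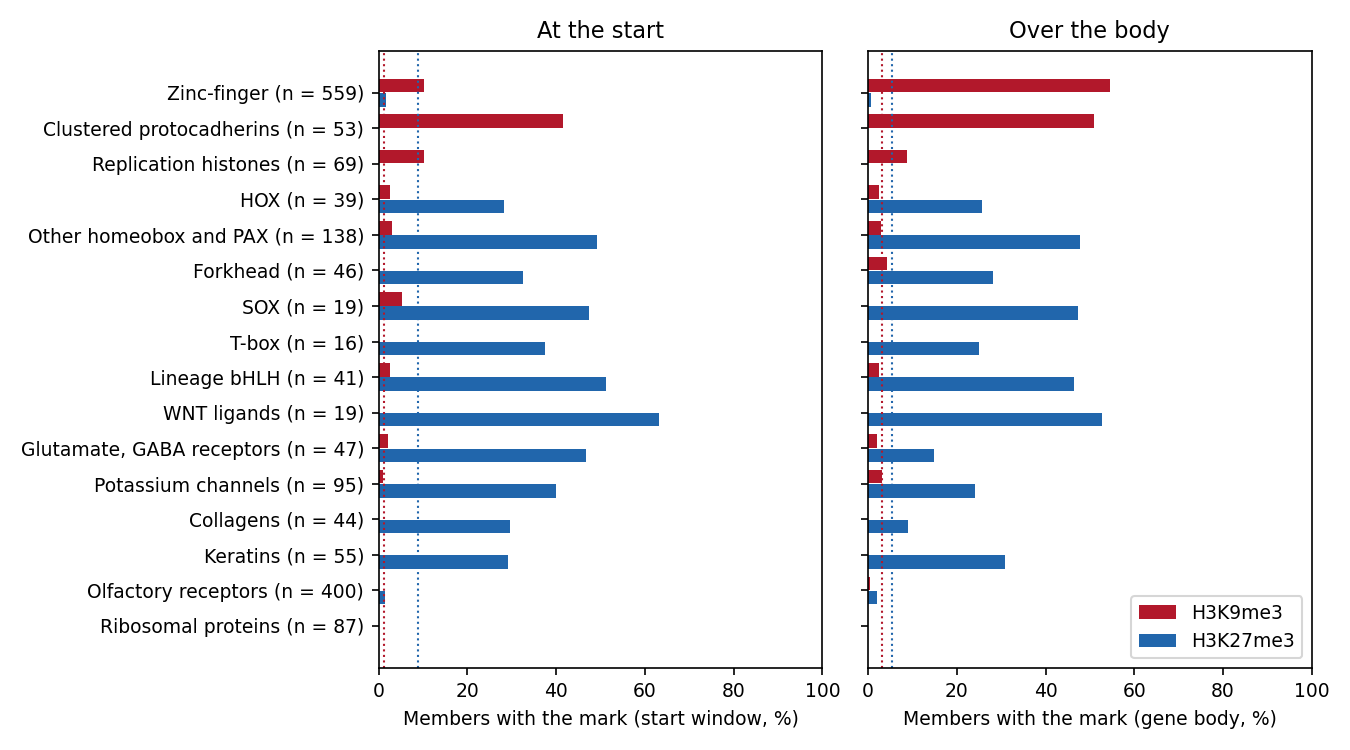
Percent of the members of 16 gene families (rows, with the number of genes) that carry H3K9me3 (red) or H3K27me3 (blue) in bases of both replicates, at the start (left) and over the body (right); dotted lines give the percent of all genes. Zinc-finger genes and clustered protocadherins reach 54.6% and 50.9% for H3K9me3 over the body and are at or under 1.61% for H3K27me3 in either window, whereas WNT ligands, lineage bHLH, homeobox and SOX genes reach 47.4% to 63.2% for H3K27me3 at the start.

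Along the gene, H3K9me3 in zinc-finger genes and H3K27me3 ran in opposite ways, and H3K9me3 in other genes did not share the zinc-finger shape. In 304 zinc-finger genes of at least 5 kb with H3K9me3 over the body, the mean share of bases in the mark was 27.6% and 20.2% in the first of 10 equal parts of the gene in replicates 1 and 2. It reached 76.1% and 70.8% in the ninth part. In 841 genes with H3K27me3 over the body the first part was the highest, at 69.3% and 60.3%, and the last the lowest, at 32.6% and 23.7%. The 290 other genes with H3K9me3 over the body followed neither shape: their highest part was the third, at 39.5% and 33.7%, and their first held 23.1% and 18.0%. The genes were chosen for the mark over the body, so the height of a profile follows from the choice, and the description concerns its shape.

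**Figure D3:**
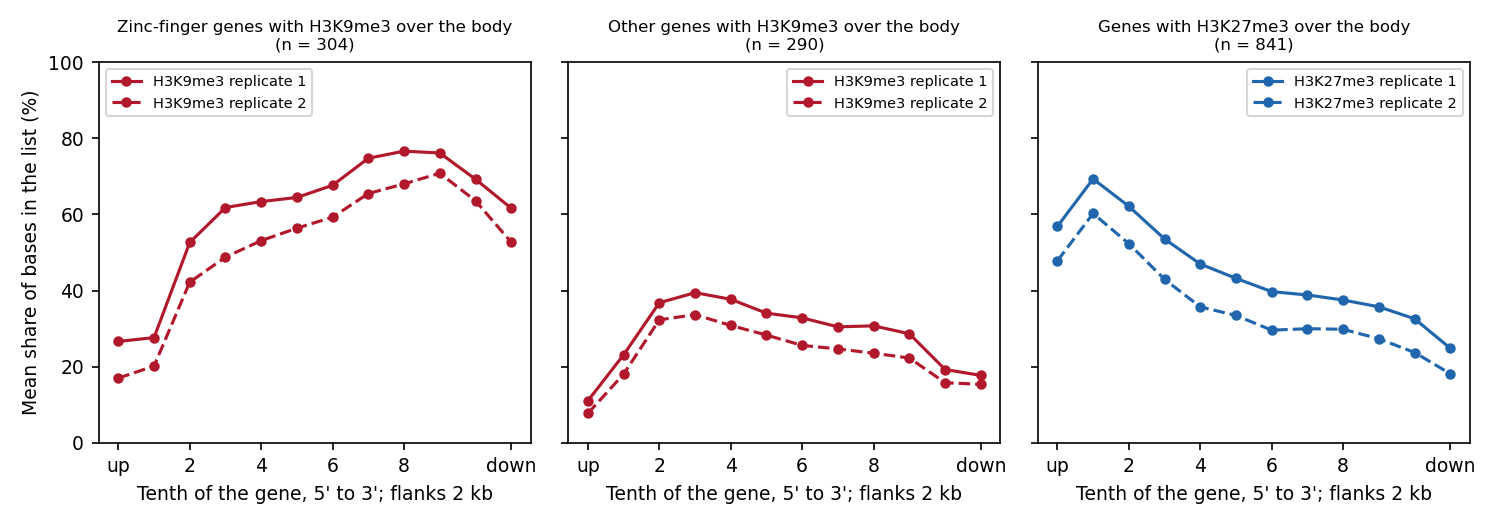
Mean percent of bases in each library's list (y axis) in 2 kb upstream, each of 10 equal parts of the gene and 2 kb downstream (x axis), for genes of at least 5 kb with the mark over the body; solid lines are replicate 1 and dashed lines replicate 2. H3K9me3 in zinc-finger genes climbs from 27.6% and 20.2% in the first part to 76.1% and 70.8% in the ninth, and H3K27me3 falls from 69.3% and 60.3% to 32.6% and 23.7%.

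The coding exons showed the same contrast. In KRAB zinc-finger genes the tandem fingers are usually encoded by a single long last exon. Among 287 zinc-finger genes with H3K9me3 over the body and at least 2 coding exons, the last coding exon (median length 1456 bases) lay 93.2% and 90.7% in H3K9me3 in replicates 1 and 2, and the first 38.6% and 29.3%. In 904 genes with H3K27me3 over the body, the first coding exon was the fuller, 74.2% and 64.8% against 43.0% and 35.6% for the last. In the 259 other genes with H3K9me3 over the body the exons hardly differed, at 20.3% and 15.7% for the first and 18.0% and 15.6% for the last.

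The fingers are joined by a conserved linker, whose DNA was searched for as CANACNGGNGANAANCC. The stretch below, chr5:178965101-178965400 on the plus strand of hg38, is part of the last coding exon of ZNF454 (chr5:178964655-178965970), which lay wholly in H3K9me3 in both replicates. It is shown because the exon holds 8 copies of the motif, and the capitals mark the 3 that fall in this stretch.
ZNF454: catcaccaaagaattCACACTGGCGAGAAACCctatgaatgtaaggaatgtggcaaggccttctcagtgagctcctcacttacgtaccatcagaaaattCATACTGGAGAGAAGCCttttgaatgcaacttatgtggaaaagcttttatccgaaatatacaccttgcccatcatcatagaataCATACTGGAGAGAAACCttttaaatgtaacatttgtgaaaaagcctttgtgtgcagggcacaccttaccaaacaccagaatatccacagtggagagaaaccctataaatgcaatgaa

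Copies of this linker tracked H3K9me3 within the family. Of 129 zinc-finger genes with 0 copies in the last coding exon, 18 (14.0%) carried H3K9me3 over the body. With 1 to 3 copies it was 44 of 95 (46.3%), with 4 to 7 copies 124 of 170 (72.9%), and with 8 or more 101 of 116 (87.1%). Both replicates gave this order on their own, from 16.3% and 14.7% with 0 copies to 93.1% and 88.8% with 8 or more. The order held on chromosome 19, from 43.8% to 87.0%, and on the other chromosomes, from 4.12% to 87.2%. Median gene lengths in the 4 groups were 30.7, 17.5, 27.2 and 29.1 kb. The motif was in the last coding exon of 381 of 510 zinc-finger genes (74.7%) and of 26 of 16937 other genes (0.154%). On the opposite strand it was in 0 and 1. Near-identical exons share sequence, and how the authors treated reads with several matches is not given in the sources used here, so the part of such reads in these values was not tested.

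**Figure D4:**
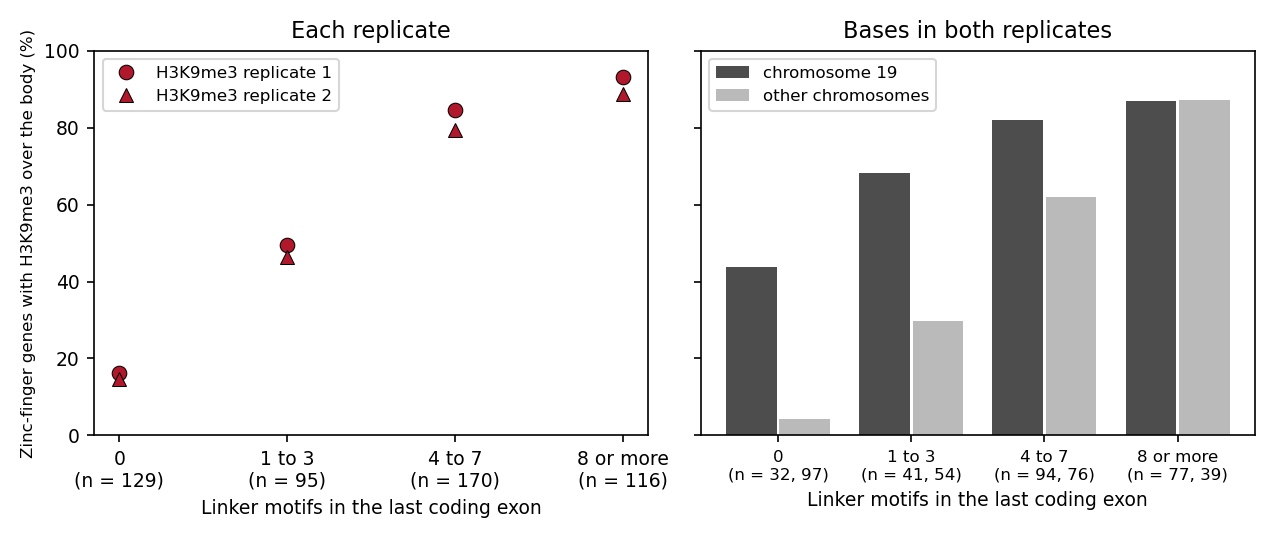
Percent of zinc-finger genes with H3K9me3 over at least 10% of the body (y axis) by the number of linker motifs in the last coding exon (x axis), in each replicate (left) and for bases in both replicates on chromosome 19 and on the other chromosomes (right; bars start at 0). The share rises at each step, from 16.3% and 14.7% to 93.1% and 88.8% in the replicates.

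By length rather than share, the bodies with the most H3K9me3 were ZNF670-ZNF695 (108.6 kb, a readthrough of neighbouring zinc-finger genes on chromosome 1), ZNF678 (107.1 kb), STK3 (76.4 kb), ENSG00000267360 (72.2 kb) and ZNF717 (70.5 kb). ZNF678 (chr1:227563543-227677443) lay 96.0% in H3K9me3 in each replicate, yet its start window had 52.8% in replicate 1 and 0% in replicate 2, and a FLI1 region lay at it in all 4 libraries. STK3, a Hippo pathway kinase, carried the mark over 19.5% and 14.5% of a 571.6 kb body. The bodies with the most H3K27me3 were RBFOX3 (371.8 kb), which encodes the neuronal splicing factor known as NeuN, PTPRN2 (334.5 kb), PRDM16 (286.0 kb), SORCS2 (220.8 kb) and DSCAML1 (170.1 kb). RBFOX3 lay 84.0% and 74.8% in the mark in replicates 1 and 2, and DSCAML1, a neuronal adhesion molecule, 63.0% and 47.5%. DSCAML1 had no H3K27me3 at its start and a FLI1 region there in 3 of 4 libraries.

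Clustered protocadherins, neuronal cell surface proteins chosen promoter by promoter, carried H3K9me3 mostly in the gamma cluster, and no H3K27me3 in bases of both replicates. Of 53 members 22 (41.5%) had H3K9me3 at the start and 27 (50.9%) over the body, and 0 had H3K27me3 in both replicates at either. In replicate 1 alone, 3 starts carried H3K27me3, and in replicate 2 alone 0 did. In the gamma cluster, 17 of the 19 variable PCDHGA and PCDHGB genes and PCDHGC4 had H3K9me3 at the start, with PCDHGA6 and PCDHGA11 covered over 100% of the window in both replicates. Outside the gamma cluster, only PCDHA1, PCDHA2, PCDHB3 and PCDHB15 had it at the start, and no alpha gene had it over the body. PCDHB3 was covered over 98.8% and 100% of its start. The long gamma genes end in shared exons, so their bodies overlap and are not independent. Histone genes of the replication-dependent kind had H3K9me3 at 7 of 69 starts (10.1%): H1-6, H4C6, H4C9, H2AC14, H2BC14, H3C11 and H4C13. Their start window is longer than the genes themselves, whose median length is 0.503 kb. The windows of H2AC14 and H2BC14 overlap, as do those of H3C11 and H4C13, so these starts are not independent. H2AC14 and H3C11 had 0% of the body in bases of both replicates.

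Families of developmental regulators carried H3K27me3 more often than all genes did. Of 138 homeobox and PAX genes outside the HOX clusters, 68 (49.3%, against 8.92% of all genes) carried it at the start and 66 (47.8%, against 5.39%) over the body. GBX2, NKX1-1, EN2 and LHX1 were covered over all of the start and body in both replicates. Among HOX genes it lay at 11 of 39 starts (28.2%), among them HOXD1, HOXA3, HOXA7 and HOXA11. HOXA7 and HOXA11 had 100% of the start and body in both replicates, and HOXD1 had a FLI1 region at the start in all 4 libraries.

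Other transcription factor families also exceeded the 8.92% of all genes. H3K27me3 lay at the starts of 15 of 46 forkhead genes, 9 of 19 SOX genes, 6 of 16 T-box genes, 4 of 6 GATA genes and 21 of 41 lineage basic helix-loop-helix (bHLH) genes. SOX14 and SOX18 were covered over the whole start and body in both replicates, as were FOXL2, FOXE1, MYOD1, the master regulator of skeletal muscle, and OLIG2, a regulator of oligodendrocyte fate. Together with the HOX and homeobox genes, 134 of 305 such genes (43.9%) carried H3K27me3 at the start and 7 (2.30%) H3K9me3. These 134 made up 7.52% of the 1781 starts with H3K27me3, so most such starts lay outside these families. The 7 were HOXD12, LMX1A, EVX2, GBX1, PAX9, SOX30 and MYF5. PAX9 had the fullest H3K9me3 start of them, at 74.6% and 84.6% in replicates 1 and 2, and MYF5, an early muscle determination factor, had 69.5% and 27.4%. None of these 7 starts had H3K27me3 in either replicate.

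In signalling and channel genes too, H3K27me3 was at the starts of 12 of 19 WNT ligand genes (63.2%), 22 of 47 glutamate and GABA receptor genes (46.8%), 38 of 95 potassium channel genes (40%), 10 of 26 voltage-gated calcium channel genes, 13 of 44 collagen genes and 16 of 55 keratin genes. Among WNT ligands, WNT4, WNT9A, WNT3A and WNT7B had 100% of the start in both replicates. H3K9me3 was at 0 WNT, 0 calcium channel, 0 collagen and 0 keratin starts, at 1 potassium channel start (KCNE5) and at 1 glutamate receptor start (GRM6). With H3K9me3 at 1.12% of all starts, families of this size hold too few marked starts for these counts to be told from the background. Solute carriers were nearer the background, at 44 of 337 (13.1%) for H3K27me3 and 3 for H3K9me3.

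Several families had few or no marked starts. Olfactory receptors, which are silent outside the nasal epithelium, had H3K27me3 at 6 of 400 starts (1.5%) and H3K9me3 at 0. The 87 cytosolic and 78 mitochondrial ribosomal protein genes, which every cell uses, had 0 starts with either. No start of 30 genes that write, read or erase H3K27me3 carried a mark, and the body of RNF2, which encodes a Polycomb ubiquitin ligase, lay 39.1% and 27.7% in H3K9me3. Of 22 genes that write, read or erase H3K9me3, the start of TASOR, a subunit of the HUSH silencing complex, lay 12.7% and 16.3% in H3K9me3 and had a FLI1 region in all 4 libraries. The body of ATF7IP, a partner of SETDB1, lay 18.0% and 16.5% in the mark. H3K9me3 over the body was in 1 of the 30 genes (3.33%) and 1 of the 22 (4.55%), near the 3.14% of all genes. At starts, 8.92% of all genes carried H3K27me3 and 1.12% H3K9me3, so counts in 30 and 22 genes cannot be told from the background.

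Genes with both marks were few, and few of them had bases that lay in all 4 lists of the 2 marks. The 4 with both at the start were PCP4L1, CT45A10, PRRT1B and IQSEC1. The 5 with both over the body were TCHH, PRRT1B, CYP26C1, MUC5B and GPR50. PRRT1B (chr9:131545523-131559815), a proline-rich transmembrane protein gene, was in both sets. Its start lay 98.85% and 42.65% in H3K9me3 and 36.55% and 23.8% in H3K27me3 in replicates 1 and 2. In replicate 1 the shares of the marks together exceed the window, so the marks overlapped there. Even so, 0 bases of this start lay in all 4 lists. Counts of shared bases here and below need all 4 lists, so they cannot show that the marks avoid each other. At PCP4L1 (chr1:161258745-161285450) the H3K9me3 regions ended before the gene start in both replicates, at 161258605 and 161258438, while the H3K27me3 regions ran across it, from 161258239 and from 161258453.

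A further 3 genes carried the marks in different windows only. PDGFRA (chr4:54229280-54298245), which encodes a receptor of platelet-derived growth factor, and the potassium channel gene KCNG2 had H3K27me3 at the start and H3K9me3 over the body. GBX1, a homeobox gene, had the reverse, with H3K9me3 at 21.7% and 48.5% of the start and H3K27me3 over 27.5% and 22.6% of the body.  In all, 11 genes held each mark at or above the threshold in some window, and 2 of them had bases in both replicates of both marks: PRRT1B with 961 bases and CT45A10 with 248 bases in the body. With any base counted, 432 genes (median length 201 kb) had each mark in the body, and 5 of these shared a base (the pair above, MUC12, FAM90A24P and SAGE1, with 90 to 961 shared bases). None of the 11 had a FLI1 region at its start in any library. The same held for 45.9% of all starts, 84.5% of H3K9me3-only starts and 89.6% of H3K27me3-only starts. With 11 genes, the count cannot be told from that of starts with 1 mark.

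In 5 large genes both marks were present with 0 shared bases. KCNQ1, an imprinted potassium channel gene, held 22.1 kb of H3K9me3 and 62.4 kb of H3K27me3. OPCML held 26.9 and 18.8 kb, PTPRN2 13.1 and 334.5 kb, CAMTA1 11.9 and 55.0 kb, and ENSG00000282278, a readthrough model that overlaps PDGFRA, 10.9 and 11.3 kb. These 5 are the genes in which the smaller of both amounts was largest. The H3K9me3 region of PTPRN2 with the highest significance ranked at the 99.9th percentile of both H3K9me3 lists by the deposited significance.

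Strength within each list differed by place. Regions of H3K27me3 that met a start window made up 10.4% and 11.9% of their lists, and their median rank by deposited significance was at percentiles 85.6 and 81.0 of the list. For H3K9me3 they made up 1.38% and 1.36% and ranked at percentiles 56.9 and 49.2. Regions of H3K9me3 in zinc-finger gene bodies ranked higher, at percentiles 66.2 and 62.6, and held 11.9% and 14.98% of the bases of the lists. Ranks were taken within each list, since the lists differ in length. Widths differed by place too. H3K27me3 regions at starts had median widths of 3241.5 and 2604 bases, against 1103 and 884 in bodies away from starts. H3K9me3 regions in zinc-finger bodies had 1839 and 2193 bases, against 1565 and 1705 at starts. The part of width in these ranks was not tested.

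FLI1, which the rule did not use, was rare at the starts of both classes. A FLI1 region, with at least 1 base in the start window, was found at 40.7%, 40.4%, 49.7% and 46.3% of all starts in set A replicates 1 and 2 and set B replicates 1 and 2. Among starts with neither mark the mean was 48.5% ± 4.73, among H3K9me3-only starts 11.8% ± 1.76, and among H3K27me3-only starts 5.06% ± 2.62 (SD, n = 4 libraries). H3K27me3-only starts had less than H3K9me3-only starts in 4 of 4 libraries, by -6.95, -8.20, -5.88 and -5.74 percentage points. The mean difference was -6.69 ± 1.14, and a two-sided exact sign-flip permutation test over the 4 libraries gave p = 0.125, the smallest it can give, or 0.188 after Benjamini-Hochberg adjustment over the 3 such tests here. The size of the mean difference depended on how the classes were drawn: it was -2.08 with at least 50% of the window, -12.6 with any base and -12.3 with bases in either replicate. Without zinc-finger genes, an alternative added after the data were seen, it was -4.17. Set B FLI1 shares its IgG controls with the marks and set A does not, and the means were -5.81 and -7.58. The 4 values use the same classes, so their SD covers the FLI1 libraries only.

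H3K27ac followed the same order. It was at 14.6% and 19.6% of all starts in replicates 1 and 2, and at 16.3% and 21.8% of the starts with neither repressive mark. Of the 219 H3K9me3-only starts, 2 and 4 had it, and of the 1777 H3K27me3-only starts 0 and 0. With 2 libraries this is given as a description.

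Whether H3K9me3 reached the start in both replicates separated zinc-finger genes by FLI1. On their own, replicates 1 and 2 called 115 and 65 zinc-finger starts. The group without the mark at the start therefore holds genes such as ZNF678, whose start lay 52.8% in H3K9me3 in replicate 1. Of the 57 with H3K9me3 at the start, 18.9% ± 1.68 had a FLI1 region there (SD, n = 4 libraries). Of the 254 with H3K9me3 over the body and not at the start, 68.8% ± 7.13 did, and of the 239 with neither mark, 65.4% ± 5.49. The body-only group exceeded the start group by 49.9 points ± 6.29, in 4 of 4 libraries (exact sign-flip permutation p = 0.125, adjusted 0.188). It differed from the unmarked group by 3.42 points ± 2.75, above 0 in 3 of 4 libraries (exact sign-flip permutation p = 0.25, adjusted 0.25), with values of -0.21, 4.02, 6.43 and 3.45. H3K27ac gave another order for these groups: 10.6% and 14.2% of the body-only group had it, against 25.9% and 34.3% of the unmarked group. On chromosome 19 the values were 7.5% and 7.5% against 10.8% and 23.1%, and on the other chromosomes 15.96% and 25.5% against 31.6% and 38.5%, so both libraries lay lower in the body-only group in either place. Median CG counts of the promoter windows were 15, 20 and 20 in the start, body-only and unmarked groups, and their part in the FLI1 difference was not tested.

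**Figure D5:**
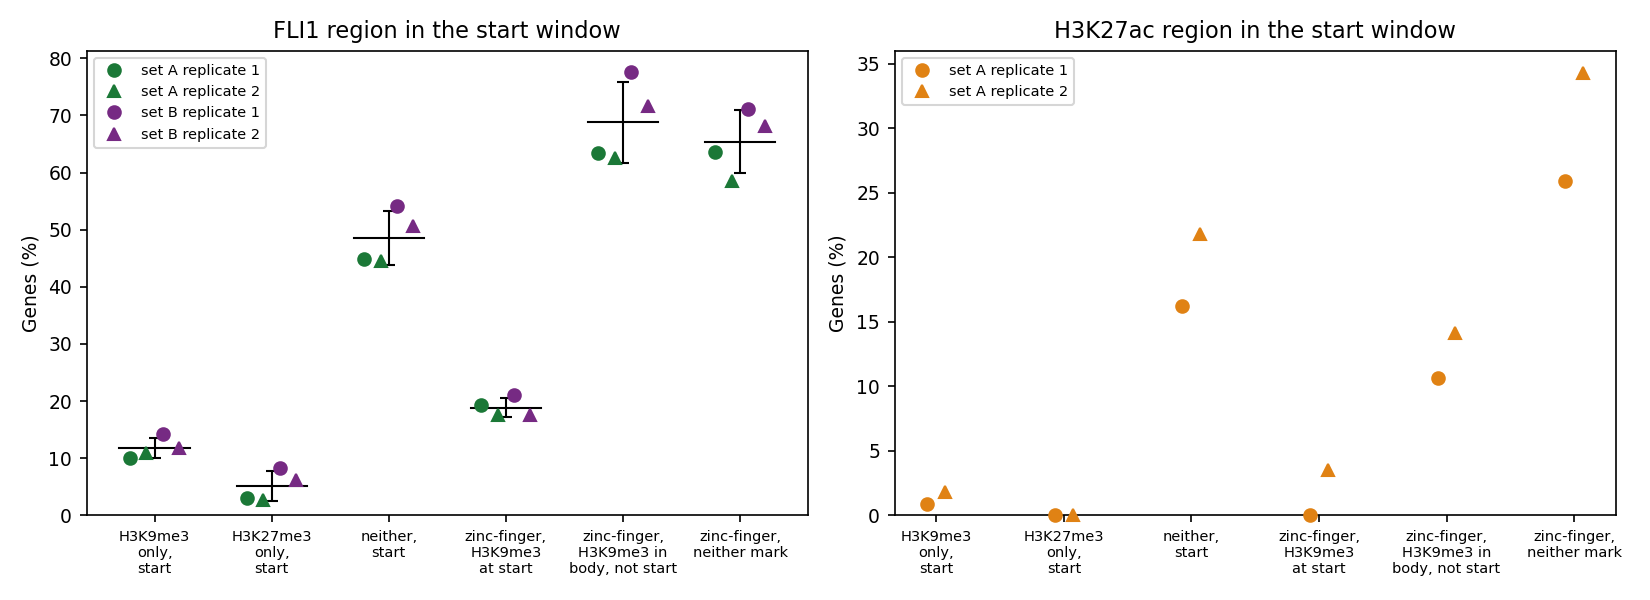
Percent of genes with a FLI1 region (left) or an H3K27ac region (right) in the start window (y axis) for the start classes over all genes and for zinc-finger genes split by H3K9me3 (x axis); each point is 1 library, and on the left the line and bar are the mean and SD of 4 libraries. FLI1 is at 68.8% ± 7.13 of zinc-finger starts with H3K9me3 in the body only and at 18.9% ± 1.68 of those with H3K9me3 at the start.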

How the data were processed

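CUT&RUN of untreated TC-32 cells was used, with the 4 set B lists of H3K9me3 and H3K27me3 and, as readouts, 4 FLI1 and 2 H3K27ac lists. Each deposited file is a peak list of 1 library. Per the submitters' processing notes, cutadapt 4.4, Bowtie2, Picard 2.17.11 and MACS2 2.1.1 were used with GRCh38 (hg38), with no role or option given. Per the region names in the files, calls were made per library, with the equally numbered IgG library of its set as control. The authors deposited for each region a fold (a ratio to control), a −log10 p-value, a −log10 q-value and a score, which were used only to rank regions within a list, and a summit position. Spike-in counts were not used.

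Genes were the 19970 protein-coding genes of GENCODE release 44 on the 22 autosomes and X, and all 277287 regions in the lists ended within their hg38 chromosome. Overlapping regions of a list were merged, and a mark's bases were those in both replicates. Families came from 30 rules on gene symbols. Members, families and rules were chosen with earlier results of these data known. Genes named in the text were the 5 with the fullest coverage of each class (ties by the longer gene), those with both marks, the 5 with the most kb, up to 4 a family and those standing apart by the opposite mark, the genes next to the threshold, and the longest runs. Promoter windows and the linker motif were read from hg38, and were used in place of RefSeq promoter windows, which matched too few genes, and of a count of fingers in proteins; the motif and the groups by its copies were chosen after the lists had been seen. Some names were chosen after their values were seen: STEAP2, CD99 and GLI1 among the markers, MUC12, FAM90A24P and SAGE1, and INS, IGF2, TH and ASCL2 in the longest run.

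Tests were exact permutations over libraries. Covered bases were tested on simulated regions, where 0 of 12000 windows were wrong. The region lists give no read depth, so no counting error can be given. Same-numbered libraries share an IgG control. Correlated over the 19970 genes, their deviations gave r = -0.029 over bodies and -0.013 over starts (2 pairs). Few genes carried both marks, so this r cannot show whether same-numbered libraries go together. In each mark, replicate 1 gave the higher percent of genes at starts (2.30% against 1.32%, 11.1% against 9.43%) and over bodies (4.84% against 3.56%, 7.68% against 5.87%). Alternatives changed the share of the window, the use of replicates, the significance and number of regions, the window, the gene set and the FLI1 rule. Python 3.11.15, numpy 2.4.6, pandas 2.3.3, scipy 1.17.1 and matplotlib 3.10.9 were used.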

Additional observations from a re-analysis of the deposited data

Results flagged for a closer look

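Chromosome Y lies outside the genes compared, and the H3K9me3 lists of set B held 82 regions on it in replicate 1 and 50 in replicate 2. The H3K27me3 list of replicate 2 held 1. These regions stood above the IgG control in the authors' calls and enter no class above. Groups of 2 libraries are too small to test for a library that stands apart.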

How the results depend on the processing

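The order of the marks at starts, the order of the marks in the share of body genes with the same mark at the start, and the sign of the FLI1 difference held under every alternative run for them. That share was not run for bodies without the first 1 kb. The difference over bodies reversed to -6.62 points when any base counted. Class sizes moved more. At the start, H3K9me3 only held 85 genes with at least 50% of the window, 478 with either replicate, 110 with the more significant 50% of each list, 127 among genes that overlap no other and 368 with any transcript start. Leaving out 1 library of either mark gave 219 to 452, the highest without H3K9me3 replicate 2. The class with both marks at the start held 0 at 50%, 10 with either replicate, 4 to 7 leaving out 1 library (7 without H3K9me3 replicate 2), 8 with any transcript start, and 2 each with the more significant 50%, with lists cut to the shortest and with 0.5 kb windows. Over the body, H3K9me3 only held 3167 genes with any base, 194 at 50%, 1030 with either replicate, 621 to 956 leaving out 1 library (956 without H3K9me3 replicate 2) and 352 among genes that overlap no other. H3K27me3 only over the body held 2230 with any base and 337 at 50%. Both over the body held 432 with any base, 0 at 50%, 16 with either replicate, 5 to 11 leaving out 1 library (11 without H3K9me3 replicate 2), 2 with the more significant 50% and 3 with lists cut to the shortest. Genes that overlap no other left 11555 with neither mark at the start and 11899 over the body.

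The FLI1 difference was -12.6 points with any base, -12.3 with either replicate, -2.08 at 50% of the window and, as alternatives added after the data were seen, -4.17 without zinc-finger genes and -5.09 without these and clustered protocadherins. Among values of single families and genes, 409 moved by more than the SD between replicates, 336 of them up and 73 down. Pairing libraries by number (replicate block) left the 3 differences between the marks at 8.46, 2.58 and 52.7 points with an exact permutation p of 0.5, the smallest for 2 pairs, and changed no other call. Leaving out replicate 1 or 2 gave 8.11 to 8.81, 2.32 to 2.84 and 48.7 to 56.6 points. The 2 libraries per mark and lists without read totals limit every count of genes.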

Other observations

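Of the 323 genes outside the zinc-finger symbols with H3K9me3 over the body, 37 overlapped a zinc-finger gene, 27 were clustered protocadherins, 6 were histone genes, 31 had no gene symbol and 253 were none of these. Among the homeobox genes, OTX1 carried H3K9me3 over the body, at 44.1% and 27.1% in replicates 1 and 2, and neither mark at the start. TLX3 had H3K9me3 at 59.9% of the start in replicate 1 and 0% in replicate 2, while its H3K27me3 coverage was 100% in both.

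FLI1 regions were also found at starts that carried H3K27me3. SOX1, FOXA3 and HOXD1 had one in all 4 libraries, with H3K27me3 over 49.6%, 32.4% and 83% of the start in both replicates. In the H3K27me3-only class as a whole, 24 of 1777 starts had a FLI1 region in all 4 libraries, against 33.8% of all genes, and 1592 had none, against 45.9% of all genes. Of the 219 H3K9me3-only starts, 18 had a FLI1 region in all 4 libraries and 185 had none. These names were chosen after their values were seen.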
